A study of Mus musculus with 6 samples.

Results

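The genes described are the serine/arginine-rich splicing factors (SR proteins) and the heterogeneous nuclear ribonucleoproteins (hnRNPs) of mouse keratinocytes, with all of their annotated transcripts. They were chosen by symbol alone, as Srsf followed by a number, Tra2a or Tra2b, or Hnrnp, leaving out pseudogenes. The rule gave 31 of the 52550 genes and 215 of the 131146 transcripts in the tables. Of the 215 transcripts, 96 are annotated as coding for a protein, 30 as targets of nonsense-mediated decay (called decay-marked here), 57 as retaining an intron and 32 as processed transcripts without a reading frame, the last 2 classes being called non-coding.

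Messenger RNA was sequenced from primary keratinocytes of wild type C57BL/6 mice aged 0 to 2 days, isolated from skin epidermis and kept in culture for 2 days. One group was left untreated and the other received recombinant IL-33, an alarmin cytokine released by damaged barrier cells, over 12 h, with 3 libraries in each group. The sources used here do not give the dose of IL-33. The labels do not tell whether replicates are separate cultures or animals, so a p-value reflects only how these libraries scatter, possibly for technical reasons. The single comparison asks whether IL-33 alters these genes or the make-up of their transcripts. The libraries held 34188173 to 45266298 deposited estimated counts, about 4 of which correspond to 1 sequenced fragment. The 7 keratinocyte markers (among them Krt5, Krt14 and Trp63) summed to 34741 to 37558 CPM (counts scaled to the library total), the highest of the 6 marker lists. Krt5 and Krt14 gave most of this sum (means 18505 and 14490 CPM over the 6 libraries), whereas Krt15 was at 0.523 to 1.41 CPM. The 5 melanocyte markers summed to 1092 to 1187 CPM, the 6 fibroblast markers to 26.5 to 38.1 and the 5 immune markers to 0.0882 to 3.10, with Cd3e and Cd207 at 0 in every library. Of the 24 markers tested over the 6 lists, edgeR called 0 (3 at an unadjusted p under 0.05; DESeq2 and limma on FPKM also 0), and the part of these cells in the values below was not tested. In bulk RNA, fewer cells of a type and less RNA per cell cannot be told apart.

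SR proteins bind exonic enhancers through RNA recognition motifs, and their arginine/serine-rich domains recruit the splicing machinery. Proteins of the hnRNP class coat nascent transcripts, and many of them repress exons or compete with SR proteins for splice sites. Genes of both classes are known for limiting their own output: a conserved alternative exon with an early stop codon (a poison exon), or an intron spliced after the normal stop, marks part of the transcripts for nonsense-mediated decay (NMD), in which a ribosome that stops upstream of an exon junction complex triggers destruction of the mRNA.

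The structure of the decay-marked transcripts was read from the annotation, which also gives their class. It therefore describes the class and is not a result of these libraries. In all 30, the stop codon lay more than 50 bases before the last exon junction, the distance at which a stop is usually read as premature, with distances from 67 to 1015 bases. In 11 of them the stop fell in an internal exon that the leading coding transcript of the gene lacks, in 8 it was the same stop as in the coding transcript with an intron spliced after it, and 11 had another arrangement; 15 of the 30 have no annotated start of the reading frame. The 5 exons of the first kind, from transcripts at a mean of at least 8.49 FPKM (fragments per kilobase of transcript, scaled to depth), are shown because they belong to the most abundant poison-exon transcripts among the members. Each is printed 5′ to 3′ on the transcript strand from its first base to the stop codon, in capitals, from GENCODE M21 on GRCm38 (mm10).
Srsf6-201: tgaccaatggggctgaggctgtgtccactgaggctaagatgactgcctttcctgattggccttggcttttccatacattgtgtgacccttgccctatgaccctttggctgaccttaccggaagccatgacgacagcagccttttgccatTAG
Srsf3-201: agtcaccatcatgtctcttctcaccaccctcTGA
Hnrnpll-203: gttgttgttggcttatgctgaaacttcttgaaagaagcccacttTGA
Tra2a-202: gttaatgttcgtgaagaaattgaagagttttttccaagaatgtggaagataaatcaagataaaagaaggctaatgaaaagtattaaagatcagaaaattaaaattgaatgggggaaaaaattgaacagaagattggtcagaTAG
Tra2b-206: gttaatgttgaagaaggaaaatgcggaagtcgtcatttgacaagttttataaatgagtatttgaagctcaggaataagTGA
The Srsf6 exon is exon 3 of 7 (chr2:162932815-162933082, plus strand, 268 bases), and its TAG stop comes 152 bases in. The Srsf3 exon is exon 4 of 7 (chr17:29039454-29039909, plus strand, 456 bases), with a TGA stop after 34 bases. The Hnrnpll exon is exon 7 of 14 (chr17:80044940-80045022, minus strand, 83 bases), with a TGA stop 47 bases in. The exons of the paralogs Tra2a (chr6:49252803-49253108, minus strand, 306 bases) and Tra2b (chr16:22258986-22259261, minus strand, 276 bases) are both exon 2, open with the same 9 letters, gttaatgtt, and stop at 144 and 81 bases. The purine-rich hexamer GAAGAA, a form of the element that Tra2 proteins are known to bind, was searched on the transcript strand over the whole exon. It occurred 4 times in the Tra2a exon and 3 times in the Tra2b exon and was absent from the other 3. For comparison, internal exons of protein-coding transcripts within 10% of the lengths of the Tra2a and Tra2b exons were searched, and 23.4% and 22.1% hold it. Exons found only in decay-marked or non-coding transcripts are not in this comparison. A match is a description and does not show a bound site.

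At the gene level, no SR or hnRNP gene passed the test for a change after 12 h of IL-33. All 31 passed the filter on low counts and 0 were called by edgeR's quasi-likelihood test at an adjusted p under 0.05, where 0.0697% of all tested genes were called (11 of 15778). At an unadjusted p under 0.05 there were 3 members, against 6.74% of all genes, and DESeq2 and limma on FPKM also called 0. The log2 fold changes (IL-33 minus untreated) were above 0 in 16 members and below 0 in 15, where 50.5% of all genes were above 0, with a median of 0.003 against 0.002 over all genes tested. The 95% interval lay within 0.5 of 0 on the log2 scale for 27 of the 31 genes; the exceptions were Srsf1, Srsf12, Tra2b and Hnrnph1. The plot of levels and differences shows all 31.

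**Figure D1:**
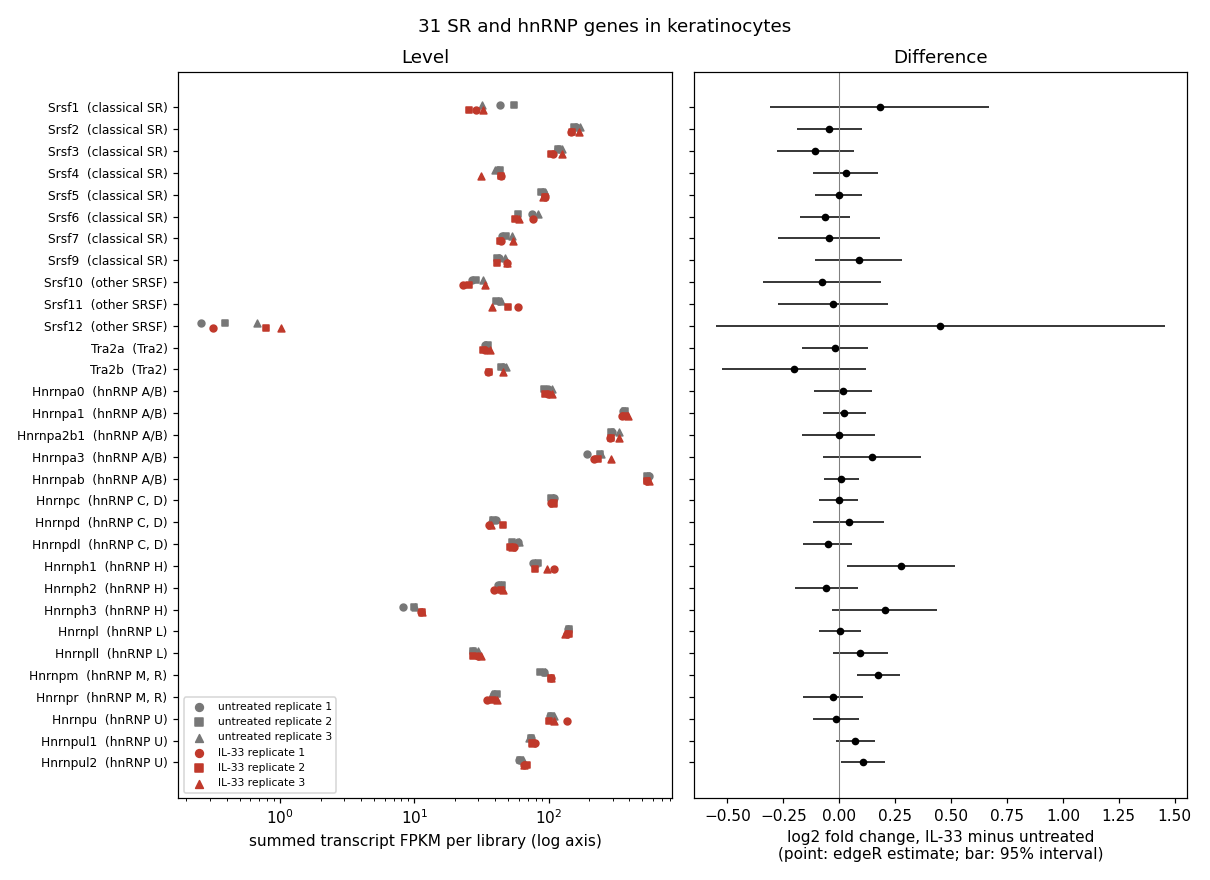
Left, summed transcript FPKM in each library (log axis) for the 31 genes, gray for untreated and red for IL-33, with a marker shape per replicate; right, log2 fold change from edgeR with its 95% interval. Levels span from under 1 FPKM for Srsf12 to 548 for Hnrnpab. The log2 fold changes at right, from gene counts, lie close to 0, with the widest interval for Srsf12. The measures can differ in direction. For Srsf1 the mean summed FPKM was 43.6 untreated and 28.9 with IL-33, beside a log2 fold change of 0.18.

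Levels of different genes were compared as summed transcript FPKM, which is per length. The A/B group of hnRNPs, formed here by symbol, held the 4 highest members. Hnrnpab was at 548 FPKM over the 6 libraries, followed by Hnrnpa1 at 371, Hnrnpa2b1 at 305 and Hnrnpa3 at 237, whereas Hnrnpa0, of the same group, was at 99.2. Among the classical SR proteins the range was 36.2 FPKM for Srsf1 to 158 for Srsf2. The lowest members were Hnrnph3 at 10.4 FPKM and Srsf12 at 0.569 FPKM, which in CPM read 0.670, 0.676 and 1.43 untreated and 0.796, 1.2 and 1.81 with IL-33, near the floor of 3 fragments (0.265 to 0.351 CPM).

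The classical SR proteins (Srsf1 to Srsf7 and Srsf9) showed log2 fold changes from -0.11 to 0.18, 3 of 8 above 0. Srsf2, a regulator of exon inclusion and the most abundant of them, read 318, 306 and 346 CPM in untreated replicates 1 to 3 and 301, 298 and 341 CPM with IL-33, a log2 fold change of -0.04 (95% interval -0.19 to 0.10). IL-33 replicates 1 and 2 were below every untreated library, and replicate 3 lay inside the untreated range. Among the other SRSF genes, Srsf11, which encodes an arginine/serine-rich protein of the spliceosome, read 85.2, 92.4 and 100.1 CPM untreated and 105, 89.2 and 78.5 CPM with IL-33. Its gene total thus did not separate the groups (log2 fold change -0.03, interval -0.27 to 0.22), although its transcripts are among those that differ most below.

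Both Tra2 genes, which encode SR-like activators of exon inclusion, had log2 fold changes below 0. Tra2b (chr16:22244549-22266005, minus strand) read 139, 139.7 and 149 CPM untreated and 111, 109 and 152 CPM with IL-33. IL-33 replicates 1 and 2 were thus below every untreated library and IL-33 replicate 3 was above all of them; the log2 fold change was -0.20 (SE 0.13, edgeR adjusted p = 0.816). Without IL-33 replicate 3 it was -0.37 with an edgeR adjusted p of 0.0197, and this was the only member gene called when a library was left out. IL-33 replicate 3 also had the highest immune marker sum, 3.10 CPM against 0.0882 to 0.759 in the other 5 libraries. Of this sum, the lysozyme gene Lyz2 gave 2.94 CPM, while Cd3e, Cd207 and Cd74 were at 0. Ptprc gave 0.158 CPM, below the floor of 3 fragments, and was at 0 in the other 5 libraries. Without this library 90 genes instead of 11 were called; the part of this library's difference in the Tra2b value was not tested.

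Among the hnRNPs, 5 genes had all 3 IL-33 libraries above all 3 untreated libraries and none had all 3 below, where 7.41% and 6.27% of all tested genes did. They were Hnrnpm, Hnrnpul2, Hnrnph3, Hnrnpul1 and Hnrnpll. Hnrnpm (chr17:33646233-33686860, minus strand), whose protein regulates splicing in epithelial and mesenchymal states, had the smallest p of the members. It read 307, 285 and 308 CPM untreated and 345, 339 and 332 CPM with IL-33 (means 299.9 ± 12.9 and 339 ± 6.65, SD, n = 3). The log2 fold change was 0.18 (SE 0.04, interval 0.08 to 0.27) and did not pass edgeR's adjusted p of 0.490.

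The U group, scaffold-associated RNA-binding proteins, included another 2 of the 5. Hnrnpul2 (chr19:8820010-8834143, plus strand) read 381, 393 and 412 CPM untreated and 417, 442 and 419 CPM with IL-33, a log2 fold change of 0.11 (edgeR adjusted p = 0.740). Hnrnpul1 (chr7:25721165-25754757, minus strand) read 291, 292 and 287 CPM and then 314, 301 and 298 CPM, a log2 fold change of 0.07 (edgeR adjusted p = 0.771). In both genes the gap between the groups was smaller than the range within the IL-33 group. Hnrnpu itself, the most abundant of the U group, averaged 871 ± 29.2 CPM without and 862 ± 48.3 CPM with the cytokine.

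The H group binds G-rich elements. Hnrnph1 (chr11:50376990-50386528, plus strand) read 138, 164 and 143 CPM untreated and 198, 155 and 185 CPM with IL-33, a log2 fold change of 0.28, exceeded among the members by that of Srsf12 alone (interval 0.03 to 0.52, edgeR adjusted p = 0.740). One IL-33 library fell below the highest untreated library, so the groups overlapped. Hnrnph3 (chr10:63014664-63024217, minus strand) read 18.1, 21.9 and 23.2 CPM untreated and 23.9, 24.5 and 24.3 CPM with IL-33, a log2 fold change of 0.20 (edgeR adjusted p = 0.763).

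In the L group, splicing regulators that bind CA-rich RNA, Hnrnpll (chr17:80029487-80062334, minus strand) read 93.8, 91.3 and 96.9 CPM untreated and 99.9, 97.2 and 104 CPM with IL-33, a log2 fold change of 0.09 (edgeR adjusted p = 0.777). The lowest IL-33 library exceeded the highest untreated library by less than the spread within either group. Its paralog Hnrnpl was at 327 ± 12.3 and 328 ± 5.14 CPM. In the A/B group, Hnrnpa3 (chr2:75659261-75669407, plus strand) read 543, 572 and 630.1 CPM and then 577, 631 and 722 CPM, a log2 fold change of 0.15 with overlapping groups (edgeR adjusted p = 0.811). Hnrnpab was at 1034 ± 17.7 and 1039 ± 27.9 CPM, and Hnrnpc, which binds uridine tracts, at 341 ± 8.58 and 340.1 ± 8.09 CPM. Exons of 12 members overlap those of another annotated gene, on the opposite strand in 9, and 3 of the 5 genes without overlap between groups are among the 12 (Hnrnpm with March2, Hnrnph3 with Rufy2, Hnrnpul2 with a predicted gene). For the overlaps on the opposite strand, that of Hnrnph3 among them, the sources used here do not say whether counting used strand. Hnrnpm and Hnrnpul2 overlap on the same strand, where strand cannot separate the reads. The counts of all these genes are therefore uncertain. Several hnRNP genes have near-identical processed copies in the genome, with the same limit.

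Non-coding and decay-marked transcripts made up a sizeable share of many members. Summed over all 31 genes, they took 14.1, 11.7 and 13.4% of the FPKM in the untreated libraries and 14.8, 11.8 and 12.6% with IL-33 (means 13.1 ± 1.2 and 13.1 ± 1.55%, SD, n = 3). The decay-marked part was 5.27 ± 0.915% and 5.20 ± 1.55%, and the retained-intron part 4.59 ± 0.594% and 4.56 ± 0.104%. The groups overlapped in each of these totals. Among genes with both classes annotated and a mean of at least 5 FPKM, the median share of non-coding or decay-marked FPKM per gene was 24.4% in 23 members against 5.77% in 6258 genes of the whole table, and 18 of the 23 members lay above the latter. The members of this comparison had a median of 4 such transcripts annotated, against 3 over all genes; the part of this difference in the shares was not tested. For decay-marked transcripts alone the medians were 8.83% in 18 members and 3.83% in 2315 genes, with 14 of the 18 above. Of the 31 members, 8 have neither a non-coding nor a decay-marked transcript in the annotation.

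**Figure D2:**
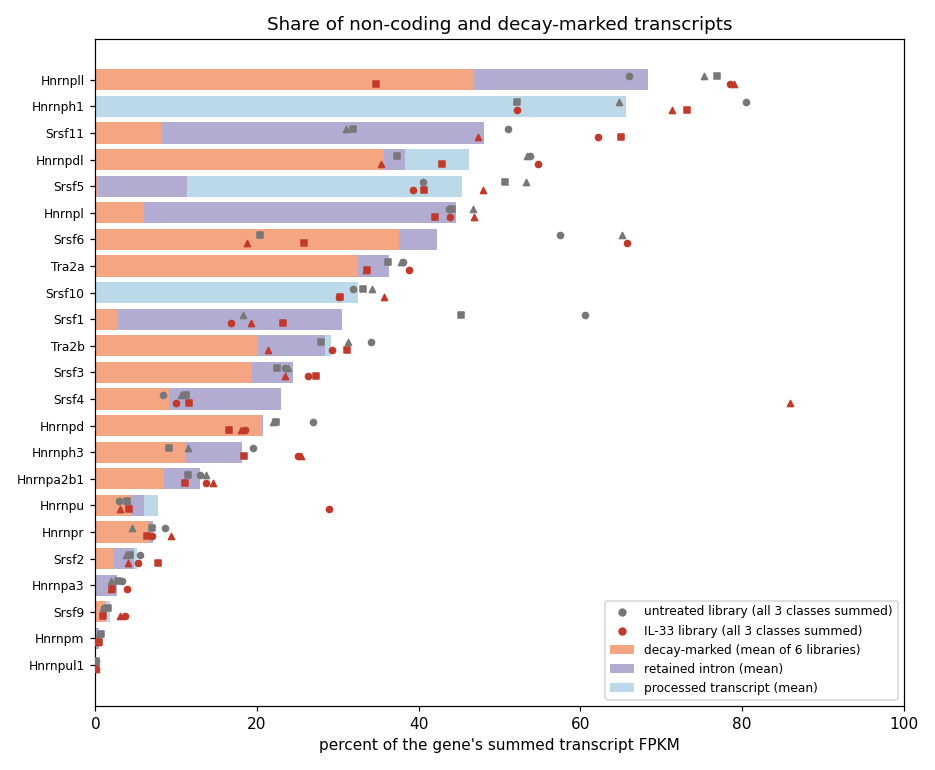
Share of each gene's summed transcript FPKM from decay-marked, retained-intron and processed transcripts (stacked bars, mean of 6 libraries), with points for the summed share in each library, gray for untreated and red for IL-33. Shares run from under 1% in Hnrnpul1 and Hnrnpm to 68.4% in Hnrnpll, and gray and red points overlap in every gene but Hnrnpd.

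Hnrnpll had the highest share, 68.4%, of which 46.9 percentage points came from decay-marked and 21.5 from retained-intron transcripts. By library it was 66.0, 76.9 and 75.2% untreated and 78.5, 34.7 and 79.0% with IL-33, so that IL-33 replicate 2 alone was low. Hnrnph1 followed at 65.7%, all of it annotated as processed transcripts. Its shares of 80.5, 52.2 and 64.7% untreated and 52.2, 73.2 and 71.3% with IL-33 overlapped fully.

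Srsf11 (48.1%), Srsf5 (45.4%) and Hnrnpl (44.6%) owed their shares mostly to retained introns or processed transcripts. In Hnrnpl, which was even across libraries (42.0 to 46.9%), retained introns made up 38.6% and decay-marked transcripts 6.00% of the FPKM. In Srsf5 the processed transcripts made up 34.0%. In Hnrnpdl (46.3%), a paralog of the mRNA-stability factor Hnrnpd, the decay-marked transcripts alone reached 35.8%. At the other end stood Hnrnpul1 at 0.0452%, Hnrnpm at 0.447%, Srsf9 at 1.85% and Hnrnpa3 at 2.66%.

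The ratio of non-coding or decay-marked to coding FPKM did not pass the test for a change with IL-33 in any member. Of the 22 members that met the level minimum, 0 were called by limma at an adjusted p under 0.05 and 0 had an unadjusted p under 0.05, where 0% and 4.89% of the 6887 genes tested did. The log2 difference was above 0 in 9 members and below 0 in 13, with a median of -0.05 against -0.01 over all genes tested. The smallest p belonged to Srsf11, with shares of 51.0, 31.9 and 31% untreated and 62.2, 65.0 and 47.3% with IL-33. Its log2 difference was 1.21 (SE 0.51), with a limma adjusted p of 0.967 and 1 IL-33 library inside the untreated range.

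Hnrnph3 (13.4 ± 5.46% and 23.0 ± 3.95%), Srsf1 (41.3 ± 21.5% and 19.7 ± 3.28%) and Srsf9 (1.14 ± 0.322% and 2.55 ± 1.39%) came next, each with overlapping groups. Hnrnpd was the 1 member whose shares did not overlap, where 10.6% of the genes tested did not (5.26% higher and 5.31% lower with IL-33); it encodes AUF1, a factor that binds AU-rich elements in mRNA, and is named after its values were seen. It read 26.9, 22.3 and 22.0% untreated and 18.5, 16.5 and 18% with IL-33, nearly all of it decay-marked. Its log2 difference was -0.52 (SE 0.33, limma adjusted p = 0.967).

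The 6 most abundant decay-marked transcripts were those of Srsf6, Hnrnpa2b1, Srsf3, Hnrnpll, Tra2a and Hnrnpdl. Srsf3-201, with the exon printed above, varied little. It read 21.0, 21.0 and 21.6 FPKM untreated and 23.8, 23.6 and 23.2 FPKM with IL-33, without overlap. The coding transcript Srsf3-202 read 89.6, 91.9 and 95.5 FPKM and then 79.2, 76.4 and 96.6 FPKM, so that the decay-marked share of Srsf3, an SR protein that also exports mRNA, was 18, 17.7 and 17.2% against 22.2, 22.5 and 18.4%. The log2 fold change of Srsf3-201 was 0.15 (interval 0.00 to 0.29) with an edgeR adjusted p of 1.00, and a DESeq2 adjusted p of 0.0337.

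Tra2b-206, with the poison exon of Tra2b, read 10.8, 8.35 and 10.7 FPKM untreated and 7.72, 7.26 and 6.15 FPKM with IL-33. All 3 IL-33 libraries were below all untreated ones, and the log2 fold change was -0.50 (interval -0.94 to -0.06, edgeR adjusted p = 1.00). As a share of the Tra2b FPKM it was 23.6, 19.0 and 22.3% untreated and 21.8, 20.3 and 13.4% with IL-33. IL-33 replicates 1 and 2 were thus inside the untreated range of shares, with replicate 3 below it. In IL-33 replicate 3, Tra2b-206 was at its lowest. The coding transcript Tra2b-204 was at its highest there, 35.6 FPKM against 23.6 to 32.8 in the other 5. That library had the highest Tra2b gene value in CPM, 152. Its summed Tra2b transcript FPKM of 45.8 lay within the untreated range of 44.1 to 47.8. Tra2a-202, with the corresponding exon of the paralog, did not separate the groups: 12.3, 12.6 and 9.02 FPKM against 12.4, 10.3 and 9.92 FPKM.

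Hnrnpa2b1-207 keeps the coding stop and splices an intron after it. It read 20.7, 18.5 and 27.4 FPKM untreated and 25.9, 21.0 and 29.1 FPKM with IL-33, beside 86.6 FPKM or more for the leading coding transcript Hnrnpa2b1-210. Hnrnpdl-205 read 10.9, 9.75 and 12.5 FPKM and then 9.74, 10.2 and 7.81 FPKM. Both overlapped between the groups. Srsf6-201 and Hnrnpll-203 spread more within a group than between groups. Srsf6-201 read 39.3, 9.32 and 51.4 FPKM untreated and 47.5, 10.6 and 8.62 FPKM with IL-33, and Hnrnpll-203 read 11.6, 16.5 and 19.5 FPKM and then 14.0, 1.33 and 19.5 FPKM.

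**Figure D3:**
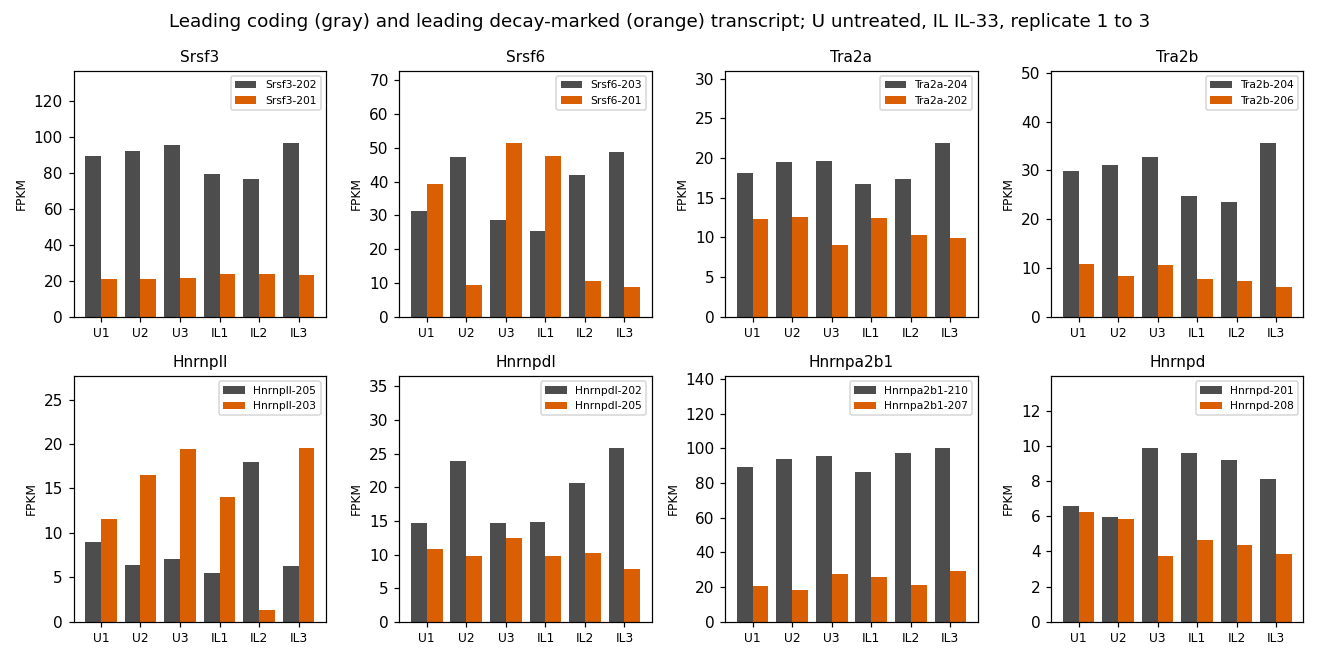
FPKM of the leading coding transcript (gray bars) and the leading decay-marked transcript (orange bars) of 8 genes in untreated (U) and IL-33 (IL) replicates 1 to 3. The decay-marked bars of Srsf3 are even, from 21.0 to 23.8 FPKM, while those of Srsf6 run from 8.62 to 51.4 FPKM within the same 2 groups.

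Over single transcripts, 174 of the 215 passed the filter and 0 were called by edgeR, where 0.0299% of the 40163 tested transcripts were called. At an unadjusted p under 0.05 there were 12, against 4.24% of all transcripts, and DESeq2 called 3 of the 172 to which it gave an adjusted p (Hnrnpd-205, Srsf11-207 and Srsf3-201), where it called 2.08% of all transcripts. Without overlap between groups, 10 were higher and 9 lower with IL-33, where 5.87% and 5.48% of all tested transcripts were. The median log2 fold change was 0.04 for the 90 coding transcripts tested, 0.04 for the 22 decay-marked, -0.29 for the 43 with a retained intron and 0.01 for the 19 processed. Of the 43, 17 were above 0 and 26 below, and their class total was 4.59% of the FPKM untreated and 4.56% with IL-33. Medians by class over all genes are not given here. The 95% interval lay within 0.5 of 0 for 24 of the 174, so single transcripts were far less precisely measured than gene totals.

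Hnrnpd-205, a decay-marked transcript (chr5:99962283-99978624, minus strand), had the smallest p. It read 0.857, 0.731 and 2.03 FPKM untreated and 0.144, 0.135 and 0.0376 FPKM with IL-33. These are about 50 sequenced fragments over the untreated and 4 over the IL-33 libraries, a ratio per depth of 11.6 with a 95% exact counting interval of 4.27 to 44.4 that covers counting error only. The log2 fold change was -3.38 (interval -5.03 to -1.73), with an edgeR adjusted p of 0.560 and a DESeq2 adjusted p of 0.000128. The 3 IL-33 libraries were each below the floor of 3 fragments.

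Srsf11 held 3 of the 8 transcripts with the smallest p. The retained-intron transcript Srsf11-207 read 0.642, 0.702 and 0.677 FPKM untreated and 16.1, 17.1 and 0.824 FPKM with IL-33, high in 2 of the 3 IL-33 libraries. Its log2 fold change was 4.05 (interval 1.25 to 6.84; edgeR adjusted p = 0.941, and 0.0172 without IL-33 replicate 3). The coding transcript Srsf11-202 read 16.8, 24.1 and 26 FPKM and then 13.3, 9.74 and 15.3 FPKM, all 3 IL-33 libraries lower. The coding transcript Srsf11-204 was higher without overlap, at 0.776, 0.425 and 0.406 FPKM against 0.987, 1.32 and 2.27 FPKM.

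The other 4 of the 8 were Hnrnph2-203, Hnrnpdl-204, Tra2b-206 and Srsf1-206. The coding Hnrnph2-203 read 26.4, 27.6 and 29.4 FPKM untreated and 29.8, 34.2 and 34.5 FPKM with IL-33. The retained-intron Hnrnpdl-204 read 1.67, 0.737 and 1.71 FPKM and then 0.638, 0.583 and 0.419 FPKM. Neither overlapped between groups. The retained-intron Srsf1-206 read 21.5, 22.3 and 3.10 FPKM and then 2.17, 3.40 and 4.19 FPKM, so untreated replicate 3 lay with the IL-33 libraries.

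Transcript usage within a gene, tested with edgeR's diffSpliceDGE, called 0 of 27 members, where 1.72% of the 8322 genes tested were called. At an unadjusted p under 0.05 there were 4 members (Srsf11, Srsf4, Hnrnpa2b1 and Hnrnpd), against 8.36% of all genes. Srsf11 had the smallest edgeR adjusted p, 0.132, and it was 0.0401 at a minimum count of 50, 0.0170 without IL-33 replicate 3 and 0.220 to 0.645 without any other library. A different member was called without untreated replicate 1 (Hnrnph2, edgeR adjusted p = 0.0354), without IL-33 replicate 1 (Hnrnpdl, 0.0146) and without IL-33 replicate 2 (Srsf1, 0.000592), where 2.57 to 2.93% of all genes were called. On simulated counts this test made many false calls, so its calls carry little weight. A limma test of each transcript against the rest of its gene, added after that was seen, called 0 of 151 member transcripts, with 6 at an unadjusted p under 0.05, where 0.123% and 4.19% of all 24371 were.

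Several members switched between transcripts from library to library irrespective of treatment. Of 77 member transcripts with a mean of at least 5 FPKM, 29 differed by more than 2-fold between libraries of the same group, against 1 of the 31 gene totals (Srsf12). These genes were chosen after their values were seen. In Hnrnpr, a factor that binds mRNA in nucleus and cytoplasm, the coding transcript Hnrnpr-204 read 29.2, 30.6 and 3.50 FPKM untreated and 3.14, 4.30 and 29.8 FPKM with IL-33. Hnrnpr-202, also coding, read 3.68, 4.44 and 29.1 FPKM and then 25.5, 26.2 and 4.06 FPKM, the mirror image, while the gene total stayed within 98.7 to 112 CPM. In Hnrnpa3, the coding Hnrnpa3-204 read 4.46, 78.9 and 94.0 FPKM and then 8.47, 128 and 100.4 FPKM.

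The same was seen between classes. In Srsf6, which encodes an SR protein known to cause skin hyperplasia in mice when overexpressed, the coding Srsf6-203 read 31.3, 47.4 and 28.6 FPKM untreated and 25.4, 41.9 and 48.8 FPKM with IL-33, high in the 3 libraries in which the decay-marked Srsf6-201 was low. The gene total of 196 to 216 CPM varied little. In Srsf4, the retained-intron Srsf4-201 read 0.945, 0.988 and 0.579 FPKM and then 0.574, 1.25 and 22.9 FPKM, while the coding Srsf4-202 dropped to 4.42 FPKM in IL-33 replicate 3 from 35.6 to 39.8 in the other 5 libraries. In Hnrnpu, the decay-marked Hnrnpu-209 was at 35.6 FPKM in IL-33 replicate 1 and at 0 counts in the other 5 libraries, which allows up to 3 fragments in each. How the submitters' software divided reads among overlapping transcripts was not tested, and shares of single transcripts in these genes rest on that division.

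**Figure D4:**
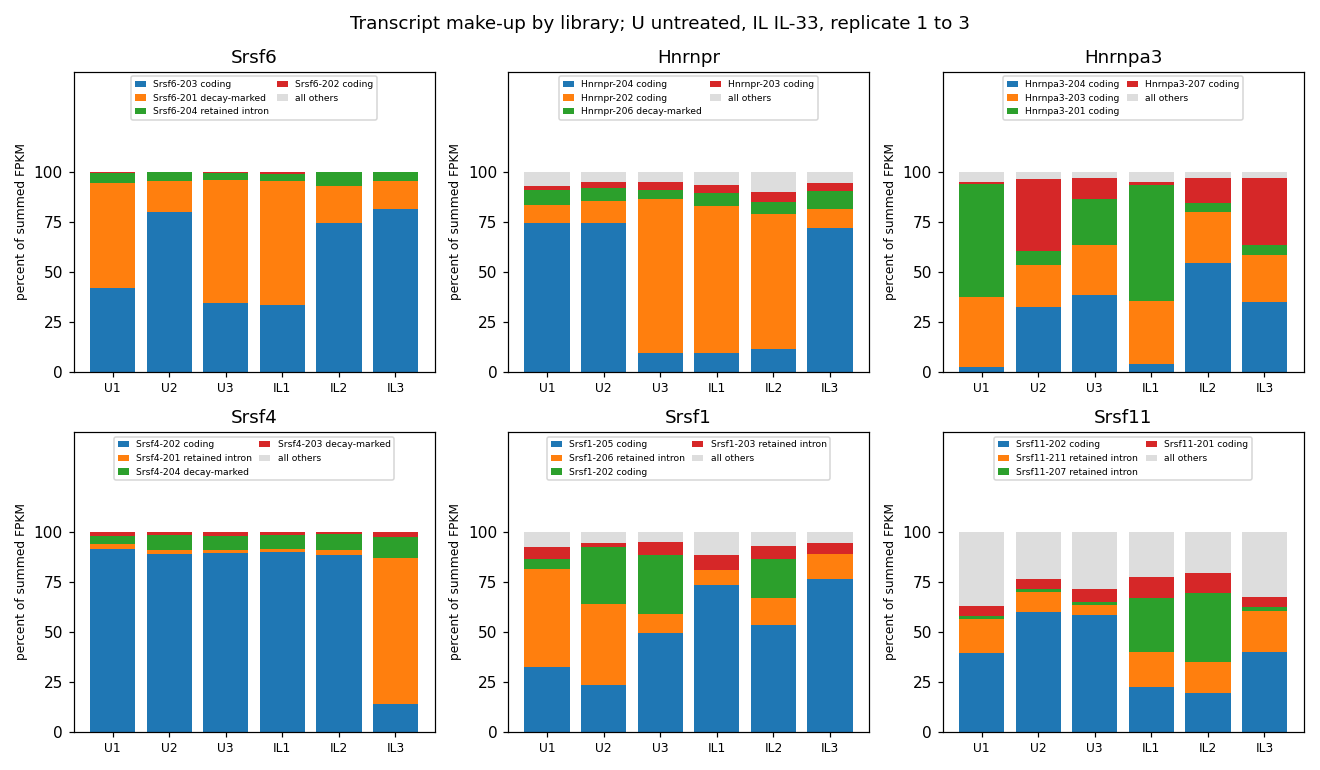
Stacked share of summed FPKM of the 4 leading transcripts of 6 genes (colors, named with their class in each panel) and all others (gray) in untreated (U) and IL-33 (IL) replicates 1 to 3. The leading transcript of Srsf6, Hnrnpr and Hnrnpa3 differs between libraries of the same group, Srsf4 differs in IL-33 replicate 3 alone, and Srsf11-207 is high in IL-33 replicates 1 and 2.

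The other genes of splicing control and decay were taken as 6 lists with 73 genes in all. Of the 72 tested, 0 were called by edgeR. An unadjusted p under 0.05 was found for 4, where 6.74% of all genes had one, and 3 were higher and 1 lower without overlap between groups, where 7.41% and 6.27% of all genes were. The median log2 fold change was -0.001. DESeq2 and limma on FPKM also called 0 of them. The 3 higher genes were Upf3a, Upf2 and Dhx34, from the list of 12 NMD factors, whose median log2 fold change was 0.01 with 0 called by edgeR. Upf3a, which links exon junction complexes to the decay machinery, averaged 25.3 ± 2.97 CPM without and 31.4 ± 1.97 CPM with IL-33 (log2 fold change 0.31, edgeR adjusted p = 0.705), and Upf2, its partner, at 40.3 ± 2.45 and 46.7 ± 2.41 CPM (0.21, edgeR adjusted p = 0.717). Dhx34 was at 24.1 ± 1.32 and 26.6 ± 0.556 CPM. The lower gene was Sugp2, of the SR-related proteins, at 29.7 ± 2.57 and 23.4 ± 3.49 CPM (log2 fold change -0.34, edgeR adjusted p = 0.717). In the SR protein kinases and import list (the Clk and Srpk kinases among them) 8 of 9 genes were tested, in the exon junction complex 6 of 6, and in the U1, U2 and 3′ splice site list 13 of 13, with 0 called by edgeR and 0 at an unadjusted p under 0.05 in each. Of the 21 other splicing regulators tested, Qk was the 1 with an unadjusted p under 0.05, at 173 ± 5.33 and 155.7 ± 12.6 CPM with overlapping groups.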

How the data were processed

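RNA was measured in 3 untreated and 3 IL-33 libraries. Per the submitters' processing notes, the authors used HISAT2 2.1.0, StringTie 1.3.4d, FastQC 0.11.7, DESeq2 1.18.1 and the build mm10; the sources used here do not say which tool made which table, nor the annotation release. Per the file headers, the deposited values are estimated counts and FPKM of genes and transcripts. The deposited estimated counts are whole numbers, proportional to FPKM times exon length, in steps of about 4 per fragment; libraries held 8547043 to 11316574 fragments on that scale, and floors of 3 fragments (12 deposited counts) cover counting error only. The deposited gene FPKM is the count over the union exon length, so levels between genes use summed transcript FPKM.

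Transcripts were matched to GENCODE M21 on GRCm38 (204 of 215 with the version, 11 without), which supplied classes, positions and sequences. The test for genes and transcripts was edgeR 4.0.16's quasi-likelihood test (R 4.3.3; TMM, robust, minimum count 10), with Benjamini-Hochberg adjustment over all features tested and a threshold of 0.05. Usage was tested with diffSpliceDGE. Class ratios were tested with limma 3.58.1 on log2(FPKM + 0.1) sums, for genes with at least 1 FPKM and 0.1 FPKM in the non-coding or decay-marked class. CPM are TMM-scaled and errors are SD over 3 libraries unless given as SE. Alternatives were other scaling and filters, counts divided by 4, DESeq2 1.42.0, limma on FPKM, the replicate number as a block, other classes and pseudocounts, and each library left out. The tests were checked on simulated data, in which the changed genes and transcripts were well counted and of low scatter. The simulated class ratios had the same scatter in every gene, whereas the SE of the members ran from 0.323 (Srsf3) to 1.53 (Srsf4). The check therefore does not show which differences could be found in the members with more scatter.

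Values are given per library or, for some, only as means. They cover the 8 member genes and 8 transcripts (mean of at least 0.5 FPKM) with the smallest p. Also covered are the most abundant member of each role group and the 6 most abundant decay-marked transcripts. The highest 6 and lowest 4 class shares and the 4 smallest p of the class ratio are covered too. The members and lists were chosen with earlier results of these data known. Every library differed from each other one beyond sampling noise. The name pattern matched 2 further genes that are not reported here.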

Additional observations from a re-analysis of the deposited data

How the results depend on the processing

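With 3 libraries per group, the single-transcript test passed only large differences on simulated counts, and diffSpliceDGE calls were unreliable there. The number of genes called was 11; it was 17 without a filter, 73 with DESeq2 and 6 with limma on FPKM, and 11 to 90 with a library left out. Transcripts called were 12, and 822 with DESeq2 and 6 to 28 with a library left out. Genes called for usage were 143, and 73 at a minimum count of 50, 83 with counts divided by 4, 26 with the added limma test and 227 to 258 with a library left out. Genes called for the class ratio were 0, and 1 with decay-marked transcripts alone, 2 with transcript counts plus 10 and 0 to 2 with a library left out. Member genes called were 0 to 1, and member transcripts called 0 to 1, with a library left out, the 1 in each being without IL-33 replicate 3; DESeq2 called 3 member transcripts. The cause of these shifts was not tested, other than that leaving out a library reduces the samples.

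The deviations of same-numbered libraries correlated at 0.031, -0.005 and -0.023, and those of differently numbered ones at -0.036 to 0.040. By mean chi-square (higher for libraries that differ more), each untreated library was nearest, among the IL-33 libraries, to the one of its own number. The values were 7.19, 6.89 and 6.83 for replicates 1 to 3, against 7.25 to 8.39 for differently numbered libraries of the 2 groups. Within a group, replicates 1 and 2 were nearest, at 5.82 untreated and 5.43 with IL-33. Untreated replicate 3 was at 6.85 and 6.80 from untreated replicates 1 and 2. IL-33 replicate 3 was at 7.67 and 7.26 from IL-33 replicates 1 and 2, farther than from untreated replicate 3. Whether replicate numbers pair the samples cannot be told from these values. With the replicate number as a block, 8 genes, 0 transcripts and 58 genes for usage were called; neither member genes nor member transcripts were called.

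Of 45 single values, 13 changed sign under some alternative, each an uncalled value. Hnrnpl was -0.0041 (log2) without a filter and -0.0027 at a minimum count of 50. The class ratio was 0.034 for Hnrnpdl with decay-marked transcripts alone, 0.46 for Hnrnpll with retained introns alone and 0.019 for Hnrnph1 with transcript counts plus 10. With a library left out, the genes ran from -0.026 to 0.019 (Hnrnpl), -0.028 to 0.015 (Hnrnpc), -0.012 to 0.023 (Hnrnpab), -0.11 to 0.0065 (Srsf2), -0.15 to 0.069 (Srsf11) and -0.058 to 0.019 (Hnrnpu), the transcripts from -0.20 to 0.028 (Tra2a-202) and -1.05 to 0.083 (Hnrnpll-203), and the class ratios from -0.54 to 0.043 (Hnrnpdl), -0.95 to 0.45 (Hnrnpll), -0.50 to 0.46 (Hnrnph1), -0.38 to 0.13 (Hnrnpa3) and -0.11 to 0.030 (Hnrnpl).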
